A study of Mus musculus with 4 samples.

Results

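A gene that is high in stem cells, low in the cells that leave that state and high again in mature blood cells, or the reverse, is missed when the ends of differentiation alone are compared. Here the middle fractions of a bone marrow series, short-term haematopoietic stem cells (ST-HSC) and progenitors, were set against both of its ends, long-term stem cells (LT-HSC) and lineage-positive cells (Lin+). A gene was taken when both middle arrays lay above both end arrays, or both lay below, by at least 2-fold, which is 1 on the log2 scale. Of 20284 named genes on the array, 11628 could be compared and 151 met this rule: 43 were higher in the middle (0.37% of the genes compared) and 108 were lower (0.929%). These values chose the genes, so they are given as a description, and no test supports them. The gap between the nearest middle array and the nearest end array is called the margin below.

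The series covers 4 fractions sorted from bone marrow of C57BL6 female mice aged 8 weeks, each on 1 single-colour Agilent array, with no mutation or treatment in any group. LT-HSC carried c-Kit and Sca-1, lacked lineage markers and lacked CD34, while ST-HSC differed in carrying CD34. The progenitor fraction held lineage-negative cells with c-Kit, and Lin+ cells carried lineage markers and so hold many mature cell types. The progenitor label gives no Sca-1 gate, whereas a protocol shared by the samples calls these cells Sca-1-negative and also mentions lineage-positive cells, so their exact gate is uncertain. The fractions of a side are different cells and not replicates, and how many mice gave cells to a fraction is not given in the sources used here.

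Long-term stem cells divide rarely and keep the capacity to rebuild blood for life, whereas short-term stem cells and progenitors divide and build biomass before they commit to a lineage. Quiet cells and mature cells share some machinery that dividing progenitors need less, such as cell cycle inhibitors and lysosomes. The antigen-presenting MHC class II molecules are known from B cells, dendritic cells and macrophages and have also been described on stem cells.

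Levels below are log2 signal relative to the 75th percentile of the same array, a point at 137 to 230 intensity units. From 40.9% to 45.9% of probes were well above background by the scanner software's own call. A single array per fraction allows neither a replicate check nor a p-value. Each ± is the software's spot error, whose median for a value was 0.146, and these errors say nothing of the spread between mice. A value not well above background was set no lower than the dimmest detected signal of its array, and the difference is then a lower bound, written as at least N-fold. In RNA from sorted pools, fewer cells of a type and less RNA per cell cannot be told apart.

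The genes of the sorting antigens behaved differently from each other. Ly6a, which encodes Sca-1, lay at 4.52 (LT-HSC), 3.12 (ST-HSC), 2.28 (progenitors) and 4.51 (Lin+), a margin of 1.38 ± 0.20 (2.61-fold) with the middle lower. It was thus lower in ST-HSC than in Lin+ cells, although ST-HSC were gated as Sca-1-positive. Cd34, the antigen that separates both stem cell fractions, gave 7.34, 8.53, 7.51 and 3.26 in the same order. Both middle fractions were above both ends by only 0.17, since LT-HSC held nearly as much Cd34 signal as progenitors.

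The called genes of both directions had typical margins of similar size. Among the 43 higher genes the median margin was 1.42, 4 reached 4-fold and 0 reached 8-fold. Among the 108 lower genes it was 1.36, with 19 at 4-fold and 3 at 8-fold. Which fraction of a side was higher can be read only where both of its arrays were well above background. Of the 43 higher genes, progenitors were above ST-HSC in 25 and below in 18, and of the 19 with both ends measured, LT-HSC were the higher end in 14. Of the 58 lower genes with both middle arrays measured, ST-HSC were above progenitors in 37. Lin+ cells were the higher end in 76 of the 108 lower genes, and in 46 the ends themselves lay over 2-fold apart.

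**Figure D1:**
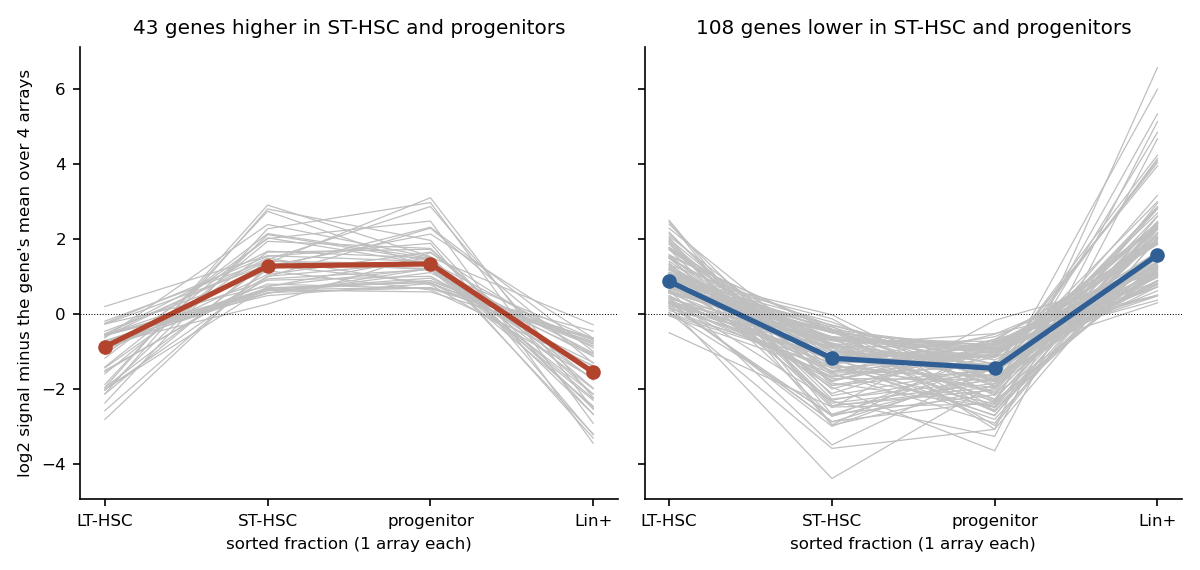
Profiles of the 43 genes higher (left) and the 108 genes lower (right) in both middle fractions. Each grey line is 1 gene, as its log2 signal minus its own mean over the 4 arrays, signals not well above background included, and the coloured line is the median. The Lin+ values of the lower genes spread far more than their LT-HSC values.

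The called genes were dimmer than most. The median level of the dimmer array on the bright side was -0.38 for the higher and -0.18 for the lower genes, against 1.71 (middle) and 1.40 (ends) over all genes compared. In 18 of the 43 higher and 37 of the 108 lower genes the difference was a lower bound. Among the 10615 genes well above background on all 4 arrays, 19 were higher (0.179%) and 58 lower (0.546%). Pairing the same arrays otherwise gave more or similar numbers: both stem fractions against both later fractions gave 452 higher and 368 lower of 11913 genes, and LT-HSC with progenitors against ST-HSC with Lin+ gave 75 and 81 of 11673. With 1 array per fraction the differences between these counts could not be tested.

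Sema7a encodes a semaphorin held in the membrane by a lipid anchor and had the largest measured margin among the genes lower in the middle. Its level was 2.05 (LT-HSC), -0.99 (ST-HSC), -2.36 (progenitors) and 2.60 (Lin+), so that the nearest middle and end arrays lay 3.04 ± 0.22 apart (8.25-fold). Pdzk1ip1, a small membrane protein gene, was bright throughout, with 7.18, 4.17, 4.03 and 6.33 in that order and a margin of 2.17 ± 0.20 (4.49-fold). A second probe for it met the rule as well. Cd55, whose product shields cells from complement, gave 0.76, -0.93, -0.94 and 1.87, a margin of 1.69 ± 0.21.

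Arhgef12, an exchange factor for small GTPases, lay at 1.67 and 1.63 in LT-HSC and Lin+ cells and at -1.19 and -0.75 in ST-HSC and progenitors, a margin of 2.38 ± 0.22. Rhoc, which encodes such a GTPase, gave 1.82 and 1.78 at the ends and -0.45 and -0.9996 in the middle, a margin of 2.24 ± 0.21. Both genes had almost equal levels at the ends. For Rhoc another probe did not reach 2-fold, and the smallest margin over its probes was 0.84.

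S1pr1 encodes a receptor for sphingosine 1-phosphate, the lipid that draws blood cells out of tissues. It gave 3.11 (LT-HSC), 1.94 (ST-HSC), 0.35 (progenitors) and 3.18 (Lin+), a margin of 1.17 ± 0.20, which fell to 0.84 when arrays were scaled to spike-in RNA and to 0.99 with another background correction. S1pr3, a receptor for the same lipid, was among the higher genes and is described with them. Irs2, an adaptor of the insulin and IGF receptors, gave 4.63, 3.22, 2.88 and 4.90 in that order, a margin of 1.41 ± 0.20. Socs1, an inhibitor of cytokine signalling, gave 2.47, 1.38, 0.62 and 2.87, a margin of 1.08 ± 0.20 that spike-in scaling lowered to 0.75. Axl, a receptor tyrosine kinase for Gas6, gave 0.21, -1.56, -1.87 and -0.42, a margin of 1.15 ± 0.24 that dropped to 0.92 with the array median as scale and to 0.62 with another background correction. Irs2 and Socs1 were named after their values were seen.

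**Figure D2:**
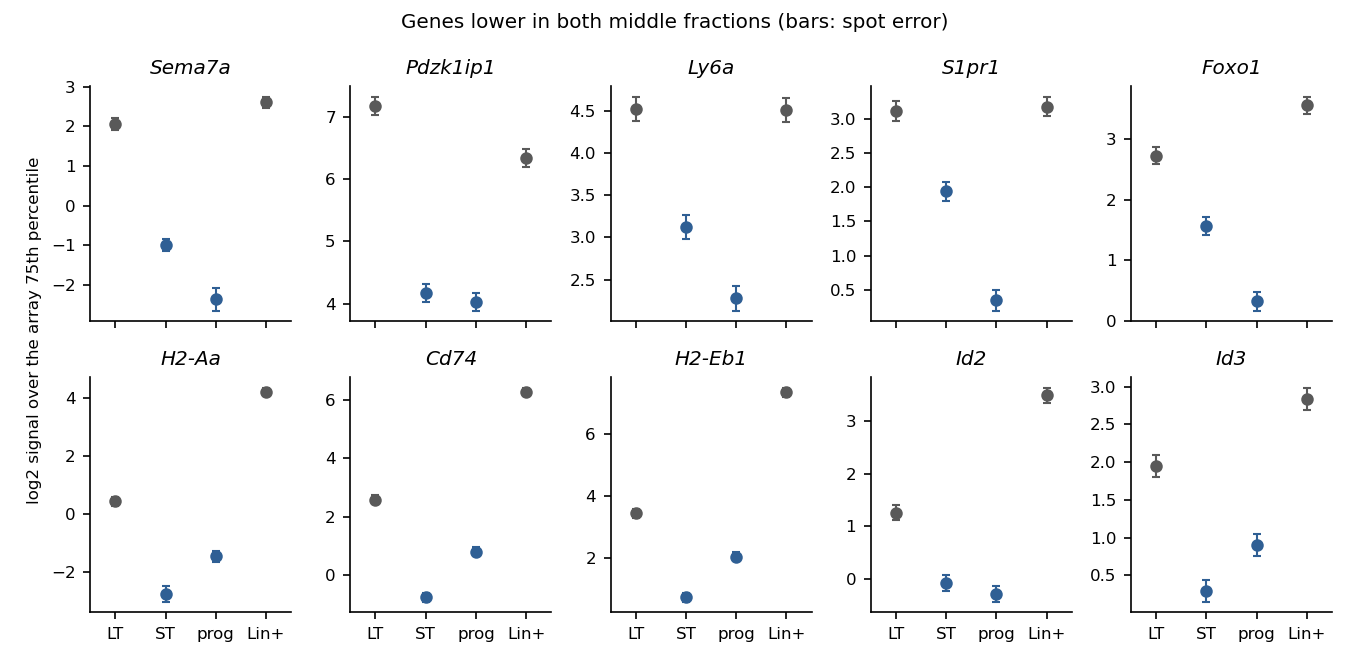
Level of 10 genes lower in both middle fractions, as log2 signal over the 75th percentile of its array, for LT-HSC (LT), ST-HSC (ST), progenitors (prog) and Lin+ cells. Bars are spot error, each panel has its own scale that does not start at 0, and blue points are the middle fractions. H2-Aa, Cd74, H2-Eb1 and Id2 were far higher in Lin+ cells than in LT-HSC, while Ly6a and S1pr1 were almost level at the ends.

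MHC class II genes had a large share of members below both ends. Of 8 members compared, 3 were at least 2-fold lower in the middle, and 5 (62.5%) lay below both ends by any amount, against 9.04% of all genes compared. With spike-in scaling 3 of 8 (37.5%) lay below, against 7.96% of all genes compared. H2-Aa encodes the alpha chain of I-A and gave 0.42 (LT-HSC), -2.77 (ST-HSC), -1.47 (progenitors) and 4.20 (Lin+), a margin of 1.89 ± 0.25 (3.71-fold). Cd74, the invariant chain that guides class II molecules to the endosome, gave 2.58, -0.76, 0.80 and 6.27, a margin of 1.78 ± 0.21. H2-Eb1, the beta chain of I-E, gave 3.45, 0.73, 2.04 and 7.35, a margin of 1.40 ± 0.20. All 3 genes were lowest in ST-HSC and highest in Lin+ cells. H2-Ab1, the beta chain of I-A, differed far less between the middle and LT-HSC, with 4.78, 4.52, 4.63 and 7.65. The class II transactivator gene Ciita was not well above background on any array.

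Because H2-Aa and H2-Eb1 moved together, the 250 bases before the start of each gene are shown, 5′ to 3′ on the gene's strand, from RefSeq on GRCm38.p6. Capitals mark CCAAT, the core bound by NF-Y, or its complement ATTGG, and in H2-Eb1 also the longer GATTGGC, which contains one of them. H2-Aa lies on the minus strand (chr17:34287824-34288073) and H2-Eb1 on the plus strand (chr17:34305617-34305866).
H2-Aa: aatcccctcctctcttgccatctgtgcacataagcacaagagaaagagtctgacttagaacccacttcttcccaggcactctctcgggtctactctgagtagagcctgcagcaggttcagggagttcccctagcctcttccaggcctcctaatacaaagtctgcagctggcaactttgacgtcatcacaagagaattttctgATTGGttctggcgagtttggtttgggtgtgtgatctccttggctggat
H2-Eb1: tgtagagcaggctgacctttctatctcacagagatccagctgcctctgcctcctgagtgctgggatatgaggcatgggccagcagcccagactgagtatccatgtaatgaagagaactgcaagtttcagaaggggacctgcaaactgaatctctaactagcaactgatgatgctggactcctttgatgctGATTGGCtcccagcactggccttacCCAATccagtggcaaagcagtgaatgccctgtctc
H2-Aa held 1 match, 48 to 44 bases before the start. In H2-Eb1 there were 2, at 35 to 31 and at 59 to 55 bases. CCAAT was found in 37.9% of all 27025 promoters, so a match on its own sets neither gene apart.

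Of 14 B cell genes compared, 4 were at least 2-fold lower in the middle, against 0.929% of all genes compared. By any amount 8 (57.1%) lay below both ends, against 9.04% of all genes. Of the 9 well above background on all 4 arrays, 3 (33.3%) lay below and 2 reached 2-fold, against 8.32% and 0.546% of all such genes. A gene can enter the comparison through the ends alone. The 4 were Ly6d, Cd55, Fcmr and Cd74, which is also counted among the class II genes. Ly6d, an early B-lineage antigen, gave 0.82 in LT-HSC, -1.24 in progenitors and 6.61 in Lin+ cells with a ST-HSC signal not well above background, a margin of 2.05 ± 0.24. Of 18 T and NK cell genes compared, Klrb1c and Tcf7 were at least 2-fold lower and 6 (33.3%) lay below both ends. Of the 12 well above background on all 4 arrays, 1 (8.33%) lay below and 0 reached 2-fold, against 8.32% of all such genes below. Klrb1c, which encodes NK1.1, gave 0.18 in LT-HSC, -2.35 in ST-HSC and 0.084 in Lin+ cells and was not well above background in progenitors. Its margin was 2.44 ± 0.28. Tcf7 rested on 1 of its probes: with the mean of both the order turned, to -0.37.

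The median level of the 14 B cell genes compared was 0.72 (LT-HSC), -0.63 (ST-HSC), -0.25 (progenitors) and 4.83 (Lin+). The summed linear level of the 27 B cell genes on the array, in multiples of each array's 75th percentile, was 88.2 (LT-HSC), 74.7 (ST-HSC), 84.8 (progenitors) and 1107 (Lin+), with 14, 10, 11 and 27 of them well above background. Members of this list differed in the stem and progenitor fractions. Ms4a1, Cd79a, Pax5 and Ebf1, which mark B cells, were among the members not well above background in LT-HSC, ST-HSC or progenitors. The 14 of 27 members that were well above background in LT-HSC included Ly6d, Cd55, Fcmr and Cd74. The 30 T and NK cell genes summed to 85.3, 118.7, 204.1 and 279.4, and the 31 monocyte and macrophage genes to 323.2, 534.4, 679.2 and 1019. Genes not well above background entered these sums at no less than the dimmest detected signal of the array. The B cell sum was lower in both middle fractions than in LT-HSC by a small amount, and far lower than in Lin+ cells. Neither of the other sums was higher in LT-HSC than in the middle fractions. The part of other cells in the class II and lymphoid values was not tested.

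Of 52 stem and progenitor transcription factors compared, 4 were at least 2-fold lower in the middle and 0 higher, and 10 (19.2%) lay below and 6 (11.5%) above both ends by any amount, against 9.04% and 24.2% of all genes compared. The median of middle minus ends was 0.17 for this list and 0.23 for all genes. The 4 were Irf4, Id2, Id3 and Foxo1, which is described below. Id2, an inhibitor of basic helix-loop-helix factors, gave 1.26 (LT-HSC), -0.073 (ST-HSC), -0.28 (progenitors) and 3.48 (Lin+), a margin of 1.33 ± 0.21 (2.52-fold). Id3, of the same family, gave 1.95, 0.30, 0.90 and 2.84, a margin of 1.05 ± 0.21. Id1 was lower in the middle by 0.57 ± 0.20, under the threshold, with 4.72, 2.16, 2.65 and 3.22. Bhlhe40, a repressor, gave 2.58 and 2.57 at the ends and 1.17 and 0.78 in the middle, a margin of 1.39 ± 0.20. It was the 1 called of 14 circadian clock genes compared. Of those genes 3 (21.4%) lay below both ends by any amount and 2 (14.3%) above, against 9.04% and 24.2% of all genes. Irf4 was not well above background in the middle, lay at -1.33 in LT-HSC and 4.51 in Lin+ cells, and dropped to 0.42 with another background correction.

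Id2 and Id3 also count as targets of BMP and TGF-beta signalling, a list in which they were the 2 called of 24 genes compared. Over all genes compared, 0.929% were called lower. By any amount 6 of the list (25%) lay below both ends and 1 (4.17%) above, against 9.04% and 24.2% of all genes. The median of middle minus ends was -0.021 for the list and 0.23 for all genes. The sequences of Id2 and Id3 before the start are shown as above, from RefSeq on GRCm38.p6. Capitals mark CCAAT as before, the core of KLF factors (CCACCC) and the CHR element of cell cycle genes (TTTGAA), or their complements. Id2 lies on the minus strand (chr12:25096093-25096342) and Id3 on the plus strand (chr4:136143572-136143821).
Id2: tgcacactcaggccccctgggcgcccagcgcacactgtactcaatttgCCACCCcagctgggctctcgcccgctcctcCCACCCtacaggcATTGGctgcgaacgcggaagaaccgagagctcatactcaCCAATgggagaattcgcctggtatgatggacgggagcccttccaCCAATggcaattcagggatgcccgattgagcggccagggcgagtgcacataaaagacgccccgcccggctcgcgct
Id3: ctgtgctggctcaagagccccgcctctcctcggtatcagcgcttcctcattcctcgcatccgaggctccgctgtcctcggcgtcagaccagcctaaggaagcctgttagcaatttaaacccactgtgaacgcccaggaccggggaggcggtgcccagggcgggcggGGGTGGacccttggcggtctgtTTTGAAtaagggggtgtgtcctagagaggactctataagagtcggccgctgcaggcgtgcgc
The Id2 window held CCAAT 3 times and CCACCC 2 times. The Id3 window held TTTGAA and CCACCC 1 time each.

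Quiescence genes and cell cycle inhibitors were a list with 12 of 39 members (30.8%) below both ends by any amount and 1 (2.56%) above. Over all genes compared, 9.04% lay below and 24.2% above. Of its 36 members well above background on all arrays, 9 lay below by more than the spot error (25%), against 4.41% of all such genes. Foxo1, a factor that restrains division and is switched off by insulin signalling, was the 1 member past 2-fold. It gave 2.72 (LT-HSC), 1.56 (ST-HSC), 0.32 (progenitors) and 3.55 (Lin+), a margin of 1.16 ± 0.20 that spike-in scaling lowered to 0.83 and another background correction to 0.98. A second Foxo1 probe met the rule. Under the threshold, and named after their values were seen, were Tob1 (0.85 ± 0.20), Cdkn2d, which encodes the kinase inhibitor p19 (0.83 ± 0.20), and Klf4 (0.73 ± 0.20).

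Autophagy and lysosome genes had 12 of 44 members (27.3%) below both ends, and interferon-stimulated genes 9 of 38 (23.7%), against 9.04% of all genes, with 0 past 2-fold in either list. Map1lc3a, an autophagosome protein gene, had a margin of 0.81 ± 0.21. Irf7, a regulator of interferon responses, had 0.86 ± 0.21. Both were named after their values were seen.

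Nupr1, a nuclear protein gene induced by stress, gave 2.04 (LT-HSC), -1.66 (ST-HSC), -0.29 (progenitors) and 1.71 (Lin+), a margin of 2.01 ± 0.21. Tgm2, a protein crosslinking enzyme, gave 5.43, 1.13, 1.87 and 3.65, a margin of 1.78 ± 0.20, and a second probe met the rule. Gstt1, a glutathione transferase, gave 3.41, 0.92, 0.56 and 2.71, a margin of 1.79 ± 0.20. These 3 genes were higher in LT-HSC than in Lin+ cells, unlike most of the lower genes. Tgm2 and Pdzk1ip1 were the 2 called of 21 long-term HSC genes compared, of which 4 (19%) lay below both ends, against 9.04% of all genes. The median of middle minus ends over that list was 0.33, above the 0.23 of all genes, but this order depended on processing. For the 15 members well above background on all 4 arrays it was -0.021, against 0.24 for all such genes. Across the alternatives, the list minus all genes ranged from -0.69 to 0.22. Hacd4, an enzyme of very long fatty acid synthesis, had a margin of 1.86 ± 0.20, and Art4, which carries the Dombrock blood group, had 1.80 ± 0.20. A second probe of each met the rule. Il18bp, which encodes the secreted trap for interleukin 18, had 2.01 ± 0.24, and Rasl11b, a Ras-like GTPase gene, 2.03 ± 0.21. Ephx1, an epoxide hydrolase, had 2.15 ± 0.21 by its brightest probe, and the smallest margin over its probes was -0.47. Slc2a3, the glucose transporter GLUT3, gave 4.24, 3.15, 3.02 and 4.90, a margin of 1.09 ± 0.20 that spike-in scaling lowered to 0.76.

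The largest lower bounds belonged to genes that were not well above background in either middle fraction. Gimap3, a GTPase of lymphocyte survival, lay at 1.05 in LT-HSC and 1.87 in Lin+ cells, at least 15.1-fold above the middle. The other 6 GIMAP genes compared did not reach 2-fold. Insrr, a relative of the insulin receptor, lay at 0.29 and 0.74, at least 8.94-fold above, and Fabp4, a fatty acid binding protein, at -0.29 and -0.28, at least 5.98-fold above. Cd38, a surface enzyme that marks mouse stem cells, lay at -1.53 in LT-HSC and 0.59 in Lin+ cells, at least 2.53-fold above the middle, and was named after its values were seen. With another background correction its bound dropped to 0.27 on the log2 scale.

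Among the genes higher in the middle, S1pr3 had the largest measured margin. It gave -1.34 (LT-HSC), 0.85 (ST-HSC), 0.37 (progenitors) and -1.75 (Lin+), so that the nearest arrays lay 1.71 ± 0.23 apart (3.28-fold). Its relative S1pr1 had the opposite order on the same 4 arrays. Sphingosine phosphate and eicosanoid genes had no other member at 2-fold in either direction, of 22 compared. Sphk1, which makes the ligand, followed neither shape, with 1.95, -2.37, 6.43 and 4.56.

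**Figure D3:**
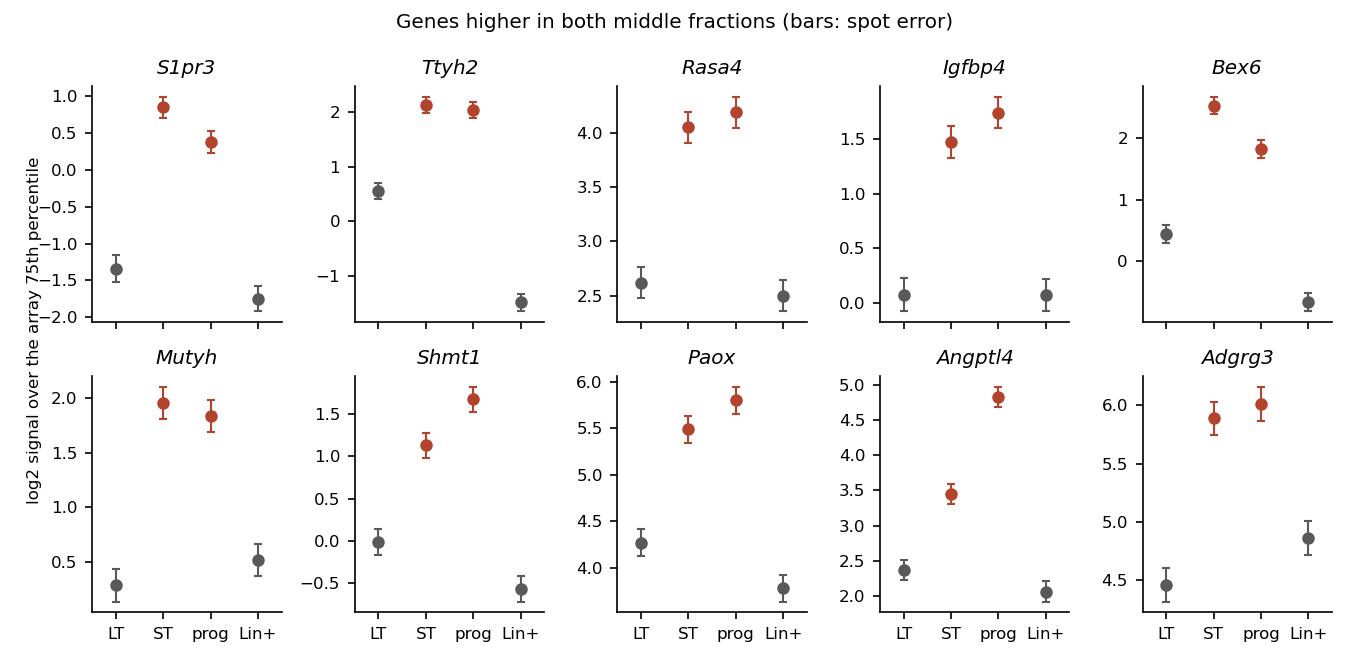
Level of 10 genes higher in both middle fractions, as log2 signal over the 75th percentile of its array, for LT-HSC (LT), ST-HSC (ST), progenitors (prog) and Lin+ cells. Bars are spot error, each panel has its own scale that does not start at 0, and red points are the middle fractions. Igfbp4 and Rasa4 were almost level at the ends, while Ttyh2 and Bex6 were clearly lower in Lin+ cells.

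Rasa4, which switches off Ras, gave 2.62 (LT-HSC), 4.05 (ST-HSC), 4.19 (progenitors) and 2.5 (Lin+), a margin of 1.43 ± 0.20. Igfbp4, a secreted binding protein of insulin-like growth factors, gave 0.076, 1.47, 1.74 and 0.076, a margin of 1.40 ± 0.21. In both genes the ends were nearly equal. Ttyh2, of a family described as chloride channels, gave 0.55, 2.13, 2.04 and -1.48, a margin of 1.48 ± 0.21. Bex6, of the brain-expressed X-linked family, gave 0.44, 2.54, 1.83 and -0.67, a margin of 1.39 ± 0.21, and a second probe met the rule. Adgrg3, an adhesion receptor, gave 4.46, 5.89, 6.01 and 4.86 and lay just inside the threshold at 1.03 ± 0.20.

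Shmt1, which hands serine carbon to folate for nucleotide synthesis, gave -0.0090 (LT-HSC), 1.13 (ST-HSC), 1.67 (progenitors) and -0.56 (Lin+), a margin of 1.14 ± 0.21, and a second probe met the rule. Paox, a polyamine oxidase, gave 4.27, 5.49, 5.80 and 3.78, a margin of 1.22 ± 0.20. Pdss2, an enzyme of coenzyme Q synthesis, had 1.45 ± 0.25, which dropped to 0.55 with the mean of its probes. Mutyh, a DNA glycosylase that repairs oxidised bases, gave 0.29, 1.96, 1.84 and 0.52, a margin of 1.32 ± 0.21. It fell under 2-fold with spike-in scaling (0.73) and with the percentile over detected probes (0.93). Angptl4, an inhibitor of lipoprotein lipase, gave 2.37, 3.45, 4.82 and 2.06, a margin of 1.08 ± 0.20. Macroh2a1, a histone variant, had 1.1 ± 0.20 by its brightest probe, and the smallest margin over its probes was -0.086.

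Among the largest bounds of the higher genes, Kcng1, a potassium channel subunit gene, lay at 0.32 in ST-HSC and -0.38 in progenitors, at least 5.90-fold above the ends, but at 0.18 on the log2 scale with the mean of its probes. Olfr267, an olfactory receptor, lay at -0.30 and 0.40, at least 6.24-fold above. Adam22 was at least 7.27-fold above by its brightest probe, and with the mean of its probes the order turned, to -0.73. Rtn4r, the receptor of the myelin protein Nogo, was at least 3.69-fold above.

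Programmes of growth had far more members above both ends than all genes did, although nearly all by less than 2-fold. By any amount, 24.2% of the genes compared lay above both ends, and 12.0% of genes well above background on all arrays did so by more than the spot error of the 2 arrays that set the margin. Mitochondrial ribosomal protein genes had 69 of 74 members above (93.2%), 34 of them beyond the spot error (45.9%). Ribosome biogenesis genes had 47 of 57 above (82.5%), with 31 beyond the error (54.4%), and oxidative phosphorylation genes 59 of 72 (81.9%), with 35 beyond it (48.6%). Heat shock and chaperone genes had 25 of 31 above (80.6%), genes of MYC and its growth targets 31 of 41 (75.6%) and cytosolic tRNA synthetases 15 of 20 (75%). Shmt1 was the only member of these 6 lists past 2-fold. With the median gene equalised, oxidative phosphorylation genes had 38 of 72 above (52.8%), against 18.0% of all genes compared under that setting.

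The median difference between the mean of the middle arrays and the mean of the end arrays was 0.23 over all genes compared. It was 1.19 for MYC and growth genes, 1.02 for ribosome biogenesis, 0.76 for mitochondrial ribosomal proteins and 0.69 for oxidative phosphorylation. In the order LT-HSC, ST-HSC, progenitors and Lin+, median levels of MYC and growth genes were 4.50, 4.59, 5.40 and 3.33. Those of ribosome biogenesis genes were 2.90, 3.24, 3.9 and 2.06. Mitochondrial ribosomal protein genes had 4.22, 4.53, 5.23 and 3.84, and oxidative phosphorylation genes 6.43, 6.61, 7.39 and 6.2. In these lists the ST-HSC median thus lay nearer to that of LT-HSC than to that of progenitors. Umps, an enzyme of pyrimidine synthesis, lay at 5.11 (LT-HSC), 5.92 (ST-HSC), 6.58 (progenitors) and 4.61 (Lin+), a margin of 0.81 ± 0.20. Gnl3, which encodes the nucleolar protein nucleostemin, gave 1.02, 1.77, 1.81 and 0.37, a margin of 0.75 ± 0.21. Ndufa4, of the respiratory chain, gave 6.13, 6.98, 7.14 and 5.24, a margin of 0.85 ± 0.20, and Calr, a chaperone of the endoplasmic reticulum, 0.82 ± 0.20. These genes were chosen as the largest margins of their lists after their values were seen.

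S phase genes had 32 of 65 members above both ends (49.2%), against 24.2% of all genes compared. Of the 62 well above background on all arrays, 23 (37.1%) were above beyond the spot error, against 12.0% of all such genes. The nuclease gene Exo1 led, with a margin of 0.97 ± 0.20. The 32 became 20 (30.8%) with the median gene equalised or with span groups set equal, and 42 (64.6%) with the array median as scale. Of all genes compared, 18.0%, 18.3% and 24.3% lay above both ends under these settings in turn. Mitotic genes had 2 of 51 above both ends (3.92%), far under the 24.2% of all genes compared. Their median level was 1.46 (LT-HSC), 3.39 (ST-HSC), 2.92 (progenitors) and 3.94 (Lin+), so that Lin+ cells held the highest value. For S phase genes the medians were 2.60, 3.76, 4.19 and 3.65.

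**Figure D4:**
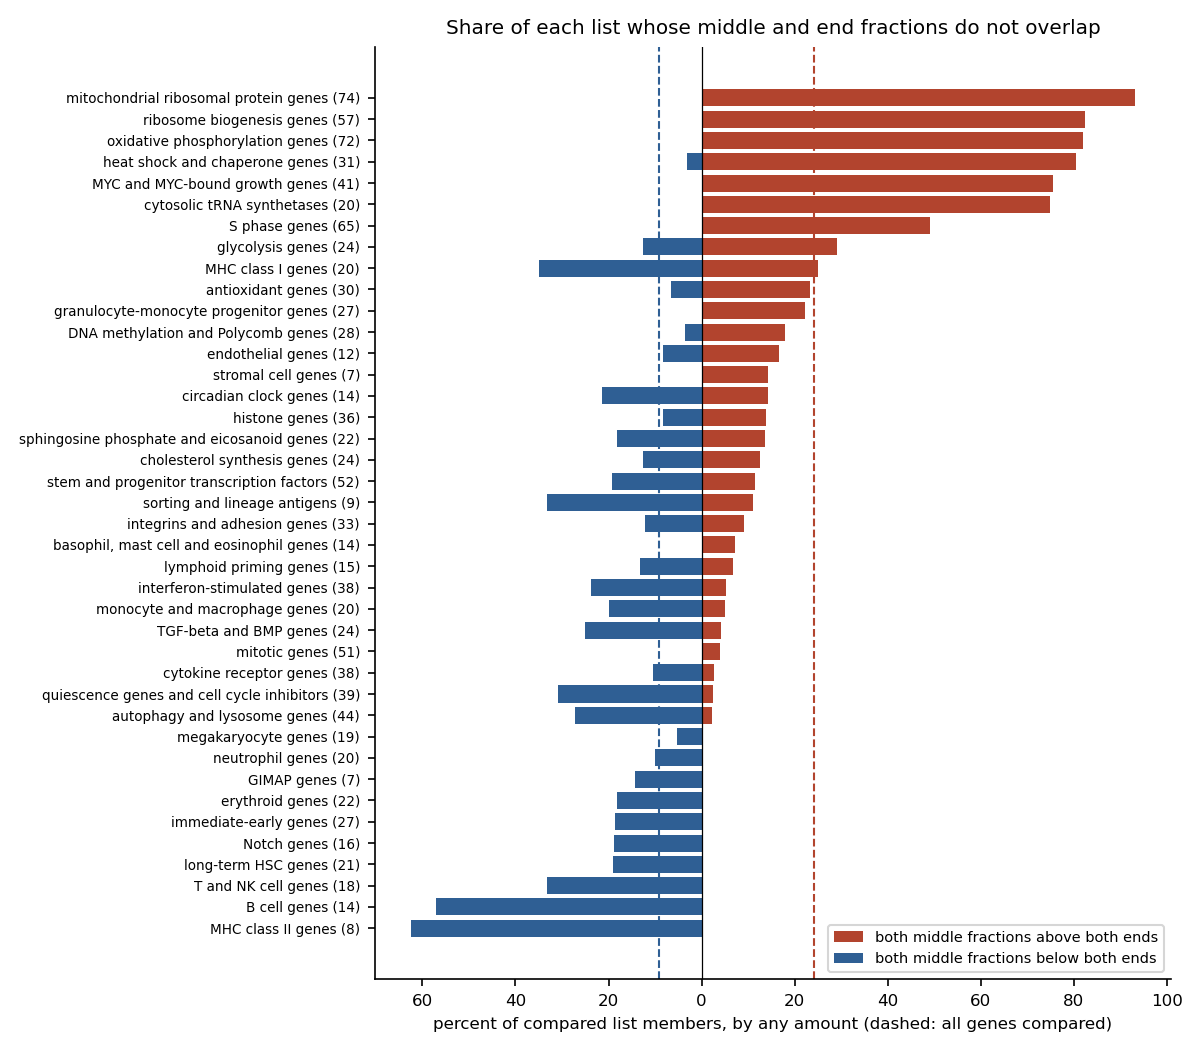
Percent of the compared members of each of 40 gene lists whose middle fractions lay both above (red, right) or both below (blue, left) both ends by any amount, with the number of members compared in brackets. Dashed lines mark all genes compared, at 24.2% above and 9.04% below. The 6 growth lists reach 75% to 93.2% above, and MHC class II and B cell genes reach 62.5% and 57.1% below.

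All genes compared were themselves shifted, by a median of 0.23 towards the middle fractions, and this shift depended on how arrays were scaled. With the 75th percentile taken over probes detected on all arrays it was 0.0052. Then 31 genes were higher and 162 lower, so that the higher genes made up 16.1% of the calls in place of 28.5%, and 15.8% and 15.3% of genes lay above and below by any amount. The growth lists stayed over all genes: across the alternatives of scaling, background, mean of probes and span, the median of MYC and growth genes lay 0.79 to 1.13 over that of all genes, ribosome biogenesis 0.73 to 0.96, mitochondrial ribosomal proteins 0.44 to 0.69 and oxidative phosphorylation 0.23 to 0.62. MHC class II genes lay 1.25 to 1.47 under it, and quiescence genes 0.54 to 0.73 under it.

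Gene length moved with part of the pattern. When genes were ordered by genomic span, the median of middle minus ends fell from 0.33 in the shortest of 5 groups to 0.076 in the longest, and the median of progenitors minus ST-HSC fell from 0.43 to -0.14. The 43 and 108 called genes had median spans of 22369 and 20900 bases, near the 20693 of all genes compared. With span groups set equal, 44 genes were higher and 144 lower, of which 37 and 101 were among those above, and 81.1% of mitochondrial ribosomal protein genes and 56.9% of oxidative phosphorylation genes still lay above both ends, against 18.3% of all genes. The part of span in the lists was not tested further.

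**Figure D5:**
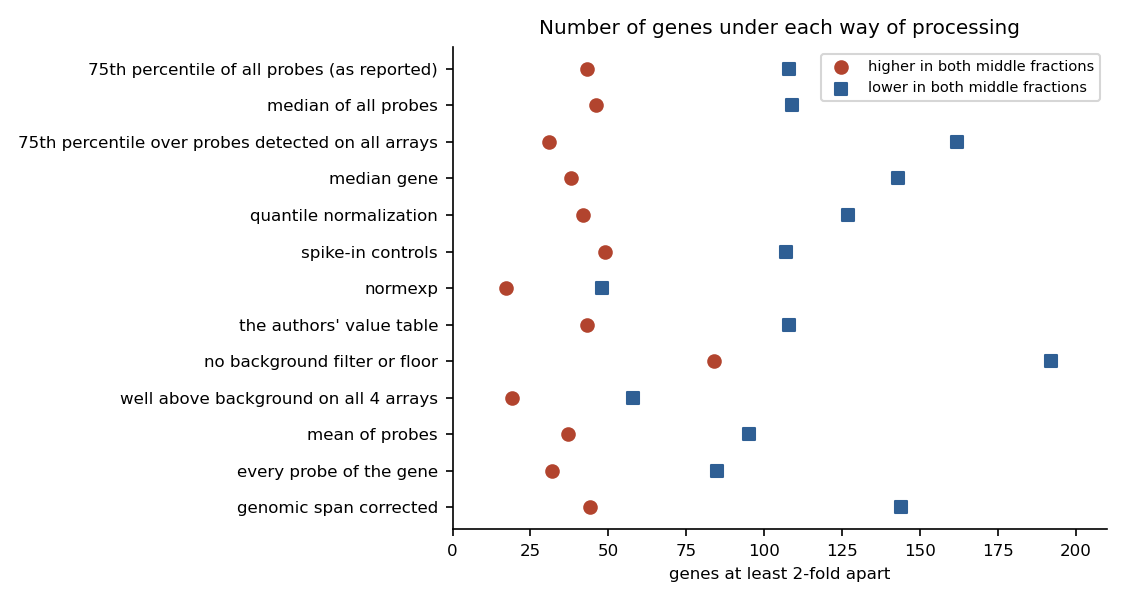
Number of genes at least 2-fold higher (circles) and lower (squares) in both middle fractions under each way of processing. Lower genes outnumber higher ones in each setting shown, from 48 against 17 with the normexp background correction to 192 against 84 with no background filter.

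Genes near the threshold did not stand apart from those that met it. Just inside lay Adgrg3, Chdh (1.02) and Plppr3 (1.01) among the higher genes, and Metrn (0.9997), Tube1 (0.9967) and Acy1 (0.9932) lay just outside. Among the lower genes Fmo5 and Ier5l (each 1.01) lay inside, and Tmem38a (0.996), Rab19 (0.981) and Oas1e (0.978) outside. All of these gaps from the threshold are smaller than the spot error.

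Of 3294 compared probes that the array names only by a genomic interval, 25 were higher in the middle (0.759%) and 3 lower (0.0911%), whereas of 14965 probes with a gene name 54 were higher (0.361%) and 125 lower (0.835%). Of 4337 compared probes with another identifier and no gene name, 19 were higher (0.438%) and 20 lower (0.461%). The interval chr14:52864224-52878449 of build mm9, forward strand, had 2 probes that met the rule. They lay at 0.11 and -0.74 in ST-HSC and at 0.91 and -0.62 in progenitors and were not well above background at the ends. What lies at this interval was not examined, since no annotation of that build was used here.

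Promoters of the called genes were also counted for short motifs, on either strand from 250 bases before to 50 after the start, in 37 of the 43 higher and 85 of the 108 lower genes with a sequence. CCACCC was found in 48.2% of the lower, 37.8% of the higher and 30.9% of all promoters. TGANTCA, the AP-1 site, was in 14.1%, 2.70% and 7.93%, and CCAAT in 40%, 37.8% and 37.9%. CACGTG, an E-box, was in 11.8%, 2.70% and 7.24%, and TTTGGCGC, an E2F site, in 2.35%, 0% and 0.537%. Some other motifs were rarer in both sets of called genes than in all promoters. TTTGAA was in 11.8%, 0% and 18.1% in the same order, and AGATAA, the GATA site, in 7.06%, 2.70% and 11.4%. Not every motif counted is printed. These shares rest on few promoters, such as 12 with TGANTCA among the lower genes and 1 among the higher. A match is a description of the letters only.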

How the data were processed

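Each fraction gave 1 array, from 10 ng of total RNA labelled with Cy3. Per the file headers, Agilent Feature Extraction 10.7.1.1 subtracted background and spatial trend within each array; the deposited intensity is its processed signal on a linear scale, not scaled between arrays. The authors' value table holds a ratio per probe, equal within 1% to that signal over 1 constant per array (191, 217, 137 and 230) for 100% of 55249 single-spot probes, and its medians were 0.0619, 0.0630, 0.0704 and 0.0738, so it served as an alternative. Control and outlier spots were left out, spots of a probe averaged, and log2 signal scaled to the array's 75th percentile over non-control probes. All 4 arrays lay on 1 slide, and 0 spots were saturated. Names came from the RefSeq gene table of GRCm38.p6 for 26762 of 55678 probes, and the brightest probe stood for a gene. A gene was compared when both middle or both end arrays were well above background. Of 1249 symbols in 40 lists, 1211 were on the array. Members, lists and the rule for named genes (antigens, the 15 largest measured margins and 8 largest bounds each way, up to 4 called members per list, and genes at the threshold; not all are printed) were chosen with earlier results of these data known. The 2-fold rule was tested on simulated data. Alternatives covered scaling, background, probe choice, threshold and span. Normexp used the median spot signal with an offset of 50, in place of the mean signal, which was not used here (limma 3.58.1, R 4.3.3). Python 3.11.15 and pandas 2.3.3 were used.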

Additional observations from a re-analysis of the deposited data

How the results depend on the processing

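With no replicates there was no test to gain or lose, and only sizes and counts can move. No paired analysis was possible because each fraction has 1 array. The count of higher genes (43) became 17 with normexp, 84 with no background filter or floor, 19 with genes well above background on all arrays, 233, 14 and 4 at 1.5-fold, 3-fold and 4-fold, and 880 when only the means of the sides had to differ. The count of lower genes (108) became 48, 192, 58, 253, 38, 19 and 703 under the same settings. Of the called genes followed, not all of them printed, 9 of 27 higher and 28 of 49 lower ones stayed past 2-fold. This held under every alternative that gave a value, the thresholds and the rule on side means aside. A gene that failed the background filter under an alternative gave no value there, so it could still count as kept. With the mean of probes the margin turned for Adam22 (-0.73), Skint3 (-0.26) and Tcf7 (-0.37), and with every probe required it turned for Macroh2a1 (-0.086), Ephx1 (-0.47) and Chdh (-0.35). The cause was not tested. Other margins of the 117 genes followed moved by more than their spot error in 417 of the values and by less in 1063. These values include the rule on side means, where the difference of the means takes the place of the margin and cannot be smaller than it. Of the called genes, 19 of the 43 higher and 58 of the 108 lower were well above background on all 4 arrays, and signal over background limits the others.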
